A study of Rattus norvegicus with 8 samples.

Results

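Fosl2, Jund, Gadd45b, Crebbp, Hdac4 and Adnp are 6 genes of activity-dependent transcription and chromatin regulation, described here in the medial prefrontal cortex (mPFC) of adult rats. They are 6 of the 439 distinct genes, and 7 of the 450 probes, that the authors listed as higher or lower in 2 deposited tables: every gene has 1 probe there except Adnp, which has 1 in the table of higher and 1 in the table of lower probes. The members were picked by gene name from those tables, which were themselves selected on the mean log2 value and the unadjusted p-value of PNFLX against CONTROL on these 8 arrays. Every difference between the groups below therefore describes what chose the genes and is given without a test. Of the members, Gadd45b lay nearest the size threshold of 0.4 (log2), with a PNFLX mean of -0.43 in the authors' deposited table, and Crebbp lay nearest the p threshold of 0.05, with p = 0.0461 in the authors' deposited table. Just outside, the nearest unlisted probe on size had an absolute PNFLX mean of 0.397 (log2). A linear model without moderation gave every member the p-value of the authors' table.

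Rats of the PNFLX group were dosed as pups, between postnatal days 2 and 21, with 10 mg/kg of fluoxetine, which blocks the reuptake of serotonin, and CONTROL rats were given 5% sucrose solution as vehicle over the same days. The whole mPFC was taken at 6 months of age in both groups, and 4 arrays were run per group, on a custom one-colour (Cy3) array with 15207 probes in the value table. The free text of CONTROL 2, CONTROL 3 and CONTROL 4 says that fluoxetine was received, although it calls these rats vehicle rats, and the groups here follow the titles. The labels used here name no strain, sex or litter and do not say how many animals an array stands for, so the spread between arrays may be technical. The tissue holds all its cell types at once, so that fewer cells of a type and less RNA per cell cannot be told apart.

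2 quantities are given. The log2 value is the authors' scaled signal after subtraction of the probe's CONTROL median, so it is a difference and not a level. The signal is Agilent's processed signal, an intensity after background subtraction and before scaling between arrays, which the authors' tables give for the listed probes. Neither is compared between probes. PNFLX 2 and CONTROL 1 had the widest spread of log2 values over all probes, with SDs of 1.72 and 2.01, where the other 6 arrays had 0.54 to 1.15, and each member's difference without them is given beside it. The tissue label could not be checked, since only probes listed as higher or lower carry names. Of 40 marker genes in 9 lists of cell types and a neighbouring region, 5 were named. The lists of neurons, excitatory neurons, interneurons, astrocytes, oligodendrocytes and microglia had none. A marker without a name was only not found among the listed probes, which says nothing of its presence in the tissue.

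Neuronal activity raises calcium and kinase signalling in the cell, which reaches promoters through transcription factors that are already present, such as CREB at the cyclic AMP response element (CRE), and through early genes that are newly made. Fos and Jun proteins pair through leucine zippers to form the AP-1 factors, which bind the AP-1 site in later target genes. Fosl2 encodes Fra-2, a protein of the Fos family, and Jund encodes JunD, a protein of the Jun family that is present in unstimulated neurons as well. Gadd45b is an early gene whose product takes part in DNA demethylation at activity-regulated genes. Crebbp encodes CBP, a histone acetyltransferase recruited by CREB and by AP-1, and Hdac4 encodes a class IIa histone deacetylase that shuttles between cytoplasm and nucleus with activity and represses MEF2 factors. Adnp encodes activity-dependent neuroprotective protein, a homeobox and zinc finger protein that acts in chromatin remodelling complexes.

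The promoter window of each gene, 250 bases before to 50 after the start of transcription, was taken from RefSeq (GRCr8) and all 6 genes matched. The windows of the 3 genes listed only as lower and of Hdac4, the listed-as-higher gene with matches, are shown because the CRE is the letters that CREB, the partner of CBP, binds. Adnp, listed both ways, had no match. Capitals mark matches, on either strand, to the CRE (TGACGTCA) or to its 5-base core (TGACG, which reads CGTCA on the other strand and also lies inside every full CRE).

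Jund, chr16:18769722-18770021, minus strand: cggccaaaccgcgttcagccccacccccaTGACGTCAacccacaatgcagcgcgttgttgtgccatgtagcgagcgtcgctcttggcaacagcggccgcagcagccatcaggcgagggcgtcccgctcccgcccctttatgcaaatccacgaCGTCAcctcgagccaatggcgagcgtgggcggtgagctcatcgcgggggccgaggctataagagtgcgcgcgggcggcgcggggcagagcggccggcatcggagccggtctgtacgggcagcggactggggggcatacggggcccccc

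Fosl2, chr6:30039220-30039519, minus strand: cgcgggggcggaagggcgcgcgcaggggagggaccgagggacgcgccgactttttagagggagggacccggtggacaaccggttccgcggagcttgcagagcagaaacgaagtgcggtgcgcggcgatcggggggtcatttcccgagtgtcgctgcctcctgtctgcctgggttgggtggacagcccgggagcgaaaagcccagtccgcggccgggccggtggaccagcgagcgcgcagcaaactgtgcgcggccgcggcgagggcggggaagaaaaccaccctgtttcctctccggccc

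Gadd45b, chr7:9430669-9430968, minus strand: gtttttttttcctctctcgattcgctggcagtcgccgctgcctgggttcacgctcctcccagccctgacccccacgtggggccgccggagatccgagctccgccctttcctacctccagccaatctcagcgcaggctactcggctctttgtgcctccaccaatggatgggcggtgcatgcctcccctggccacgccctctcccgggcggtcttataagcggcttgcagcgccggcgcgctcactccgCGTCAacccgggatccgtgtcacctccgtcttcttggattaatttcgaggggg

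Hdac4, chr9:100197588-100197887, minus strand: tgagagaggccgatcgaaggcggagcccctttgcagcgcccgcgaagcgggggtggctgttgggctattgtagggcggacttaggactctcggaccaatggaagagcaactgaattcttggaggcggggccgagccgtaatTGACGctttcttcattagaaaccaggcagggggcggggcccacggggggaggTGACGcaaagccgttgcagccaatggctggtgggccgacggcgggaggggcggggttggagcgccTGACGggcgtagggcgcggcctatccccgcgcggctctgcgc

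The Jund window held 1 full CRE, from base -221 to base -214 counted from the transcription start, and 1 further core from -98 to -94. A full CRE was present in 1.83% of the 33469 RefSeq rat promoter windows of the same length and a core in 21.2%. These shares were not matched for base composition, and the 6 windows had a median GC content of 68.3%, against 51.7% in all windows. Hdac4 held 3 cores and no full CRE, Gadd45b held 1 core across the start, and the windows of Fosl2, Crebbp and Adnp held neither. The AP-1 site (TGANTCA, present in 7.33% of all windows) and the CArG box of the serum response element (1.64%) matched in none of the 6 windows. The CCAAT box (CCAAT, 37.5% of all windows) matched once in Jund, at 2 places in Gadd45b and at 2 in Hdac4. These matches describe letters in a short window and not bound sites.

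**Figure D1:**
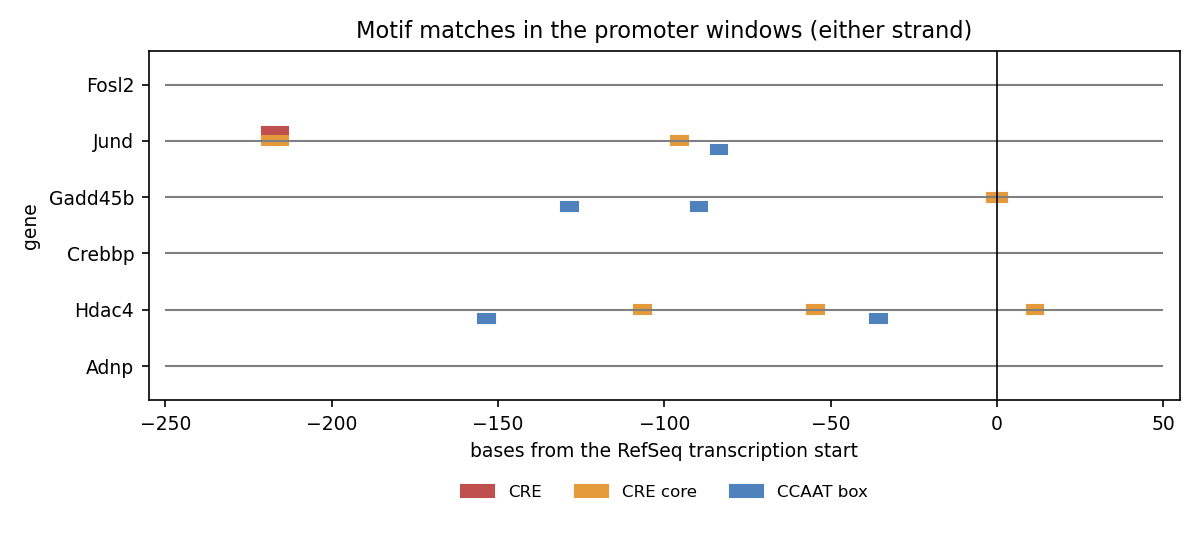
Matches to the CRE, its core and the CCAAT box in the promoter windows of the 6 genes, by distance in bases from the RefSeq transcription start (vertical line at 0). Among these genes Jund alone has a full CRE, Hdac4 has 3 cores, and Fosl2, Crebbp and Adnp have no match to the motifs drawn.

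Both AP-1 genes were listed as lower in PNFLX. For Fosl2 the log2 values were -4.50, -2.13, -1.16 and -2.73 on PNFLX 1 to 4, against 1.02, -0.80, -0.17 and 0.17 on CONTROL 1 to 4. All 4 PNFLX values lay below all CONTROL values, with a gap of 0.37 between the nearest arrays of the groups. The mean was -2.63 ± 1.40 in PNFLX and 0.06 ± 0.76 in CONTROL (SD, n = 4 each), a difference of -2.69 ± 0.74 (log2, SE).

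The Fosl2 probe was dim. Its signal was 2.97, 25.4, 37.2 and 12.3 on PNFLX 1 to 4, against 190.5, 42.8, 66.3 and 61.7 on CONTROL 1 to 4, and these ranges did not overlap either. On PNFLX 1 the value was the lowest of all listed signals of that array, a value that 57 listed probes shared there, so it is a bound and not a measurement. Every other array had 1 listed probe at its lowest signal. On PNFLX 2 the Fosl2 signal was 2.79 times the lowest listed signal of that array. Without PNFLX 1 the Fosl2 difference was -2.06, without PNFLX 3 it was -3.17, and without PNFLX 2 and CONTROL 1 it was -2.53.

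Jund spread over both groups. Its log2 values were -1.14, -1.74, -0.29 and -0.94 on PNFLX 1 to 4, against 0.52, -0.68, 0.13 and -0.13 on CONTROL 1 to 4. PNFLX 3 lay above CONTROL 2, and the other 3 PNFLX arrays lay below every CONTROL array. The means were -1.03 ± 0.60 in PNFLX and -0.04 ± 0.50 in CONTROL (SD, n = 4 each), and the difference was -0.99 ± 0.40 (log2, SE). The signal was 82.3, 90.3, 185 and 115 on PNFLX 1 to 4, against 364, 126, 222 and 135 on CONTROL 1 to 4, where PNFLX 3 again lay inside the CONTROL range. The arrays of widest spread held both extremes, PNFLX 2 the lowest and CONTROL 1 the highest log2 value, and without these 2 arrays the Jund difference was -0.56. PNFLX 3 was the highest PNFLX array and CONTROL 1 the highest CONTROL array for both AP-1 genes, while the lowest PNFLX array was PNFLX 1 for Fosl2 and PNFLX 2 for Jund.

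Markers of vessels were listed on the same side as these genes. Of the 5 endothelial and pericyte markers, 3 were named, and their differences were -3.06 ± 0.77 for Rgs5, -0.66 ± 0.30 for Anpep and -0.57 ± 0.29 for Cldn5 (log2, SE, n = 4 per group). In log2 values the groups lay apart by 0.85 for Rgs5 and overlapped for Anpep and Cldn5. The unscaled signals overlapped for Rgs5 (PNFLX 2 at 97.4, CONTROL 4 at 86.2) and Cldn5, and not for Anpep. Vcan, the only named marker of oligodendrocyte precursors among 3, was at -3.24 ± 0.54 and, like Fosl2, at the lowest listed signal of PNFLX 1. The striatal marker Adcy5, the only one named of 4, was at 1.02 ± 0.28. Summed over the 3 vessel probes, the log2 values relative to the CONTROL median were -5.63 to -3.38 in PNFLX and -0.37 to 0.54 in CONTROL, for probes that were listed on this same contrast. The part of these cells in the members' differences was not tested.

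**Figure D2:**
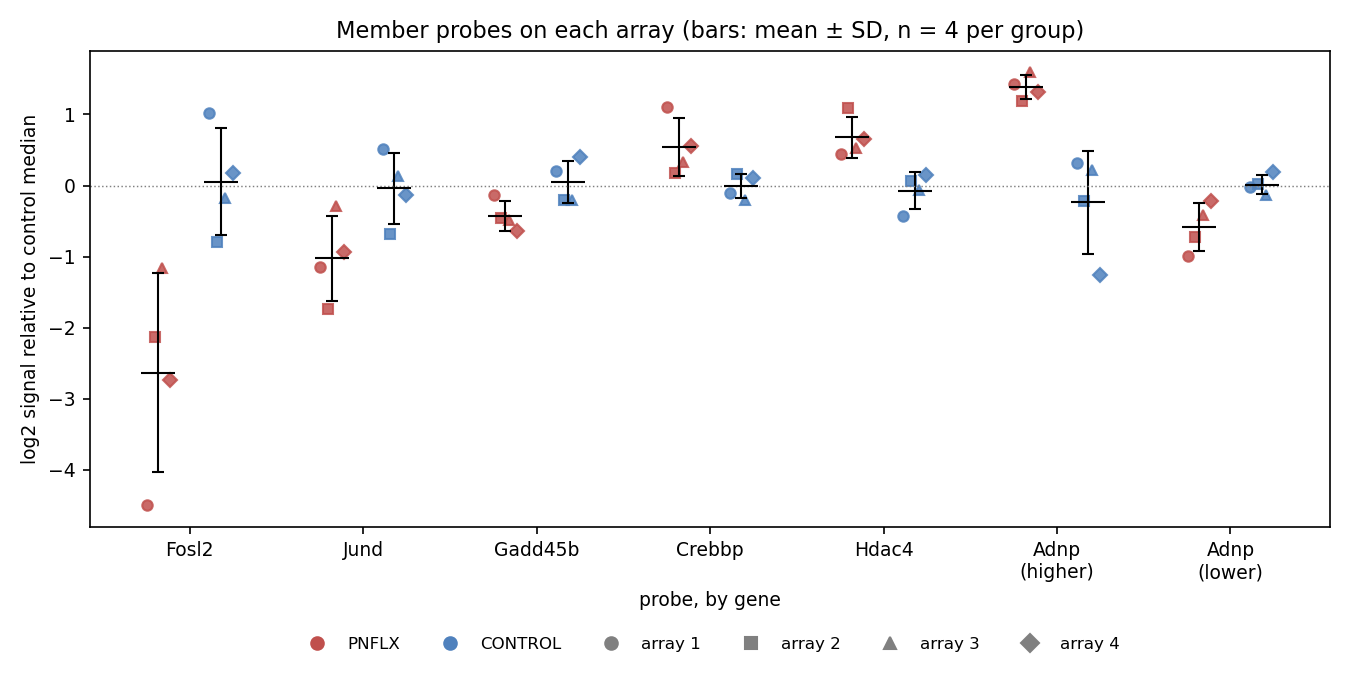
Log2 signal relative to the CONTROL median (y axis) for the 7 member probes, with PNFLX arrays in red left of CONTROL arrays in blue, marker shapes for the array number, and bars for the mean ± SD (n = 4 per group). Fosl2 reaches -4.50 on PNFLX 1, Jund and Gadd45b overlap between the groups, and the Adnp probes lie on opposite sides of 0 in PNFLX.

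Gadd45b, the early gene of DNA demethylation, had the smallest difference of the members. Its log2 values were -0.13, -0.46, -0.49 and -0.64 on PNFLX 1 to 4, against 0.20, -0.20, -0.21 and 0.40 on CONTROL 1 to 4. PNFLX 1 lay above CONTROL 2 and CONTROL 3, and the other 3 PNFLX arrays lay below all CONTROL arrays. The means were -0.43 ± 0.21 in PNFLX and 0.05 ± 0.30 in CONTROL (SD, n = 4 each), a difference of -0.48 ± 0.27 (log2, SE). Before scaling, the signal was 267, 353, 259 and 227 on PNFLX 1 to 4, against 469, 282, 282 and 315 on CONTROL 1 to 4, and PNFLX 2 stood above 3 of the CONTROL arrays. On these unscaled signals the difference was -0.27 (log2), with quantile normalization it was -0.69, and without PNFLX 2 and CONTROL 1 it was -0.42.

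The histone acetylation regulators were listed as higher in PNFLX. For Crebbp the log2 values were 1.11, 0.18, 0.34 and 0.56 on PNFLX 1 to 4, against -0.11, 0.17, -0.20 and 0.11 on CONTROL 1 to 4. The groups did not overlap, by a margin of only 0.01 between PNFLX 2 and CONTROL 2. The means were 0.55 ± 0.41 in PNFLX and -0.01 ± 0.17 in CONTROL (SD, n = 4 each), and the difference was 0.55 ± 0.29 (log2, SE), or 1.47-fold.

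The signal of Crebbp was 682, 594, 495 and 564 on PNFLX 1 to 4, against 411, 394, 307 and 278 on CONTROL 1 to 4, so the unscaled groups lay further apart than the scaled ones. PNFLX 1 had the highest Crebbp value and the lowest Fosl2 value of all 8 arrays. Without PNFLX 1 the Crebbp difference was 0.37, and without PNFLX 2 and CONTROL 1 it was 0.64.

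For Hdac4 the log2 values were 0.44, 1.09, 0.53 and 0.65 on PNFLX 1 to 4, against -0.43, 0.06, -0.06 and 0.15 on CONTROL 1 to 4. The groups lay apart by 0.29, with means of 0.68 ± 0.29 in PNFLX and -0.07 ± 0.26 in CONTROL (SD, n = 4 each) and a difference of 0.75 ± 0.27 (log2, SE). The probe, annotated by the authors with a partial Hdac4 coding sequence, was dim: its signal was 36.9, 96.3, 48.6 and 51.7 on PNFLX 1 to 4, against 28.2, 31.5, 29.0 and 24.6 on CONTROL 1 to 4. On CONTROL 1 this was 1.89 times the lowest listed signal of the array, and on the other 7 arrays 9.66 to 42.6 times. The highest value lay in PNFLX 2 and the lowest in CONTROL 1, and without both arrays the Hdac4 difference was 0.49.

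The probes of Adnp went in opposite directions. The probe listed as higher had log2 values of 1.43, 1.19, 1.59 and 1.32 on PNFLX 1 to 4, against 0.32, -0.22, 0.22 and -1.26 on CONTROL 1 to 4. The 4 PNFLX arrays were tightly grouped (mean 1.38 ± 0.17) and lay 0.87 above the highest CONTROL array, whose group averaged -0.23 ± 0.72 (SD, n = 4 each). The difference was 1.62 ± 0.39 (log2, SE), or 3.07-fold, without CONTROL 4, the low array, it was 1.27, and without PNFLX 2 and CONTROL 1 it was 1.87. The signal of this probe was 576, 810, 800 and 644 on PNFLX 1 to 4, against 375, 204, 277 and 72.9 on CONTROL 1 to 4.

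The Adnp probe listed as lower had log2 values of -0.99, -0.72, -0.41 and -0.22 on PNFLX 1 to 4, against -0.02, 0.02, -0.14 and 0.19 on CONTROL 1 to 4. Its groups lay apart by 0.08 on this scale, and the difference was -0.60 ± 0.27 (log2, SE). Its unscaled signals overlapped: they were 266, 533, 495 and 550 on PNFLX 1 to 4, against 732, 594, 535 and 492 on CONTROL 1 to 4, and only PNFLX 1 lay clearly below. Without scaling the difference was -0.39, and without PNFLX 2 and CONTROL 1 it was -0.56. Both probes carry the same transcript accession in the authors' annotation, and the files do not say where on the transcript each sits. Within an array, the higher-listed minus the lower-listed probe was 2.42, 1.91, 2.00 and 1.53 on PNFLX 1 to 4, against 0.34, -0.24, 0.36 and -1.45 on CONTROL 1 to 4. The array scaling cancels in this difference, which averaged 1.97 ± 0.36 in PNFLX and -0.25 ± 0.85 in CONTROL (log2, SD, n = 4 each). A direction for Adnp as a gene cannot be given from these probes.

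**Figure D3:**
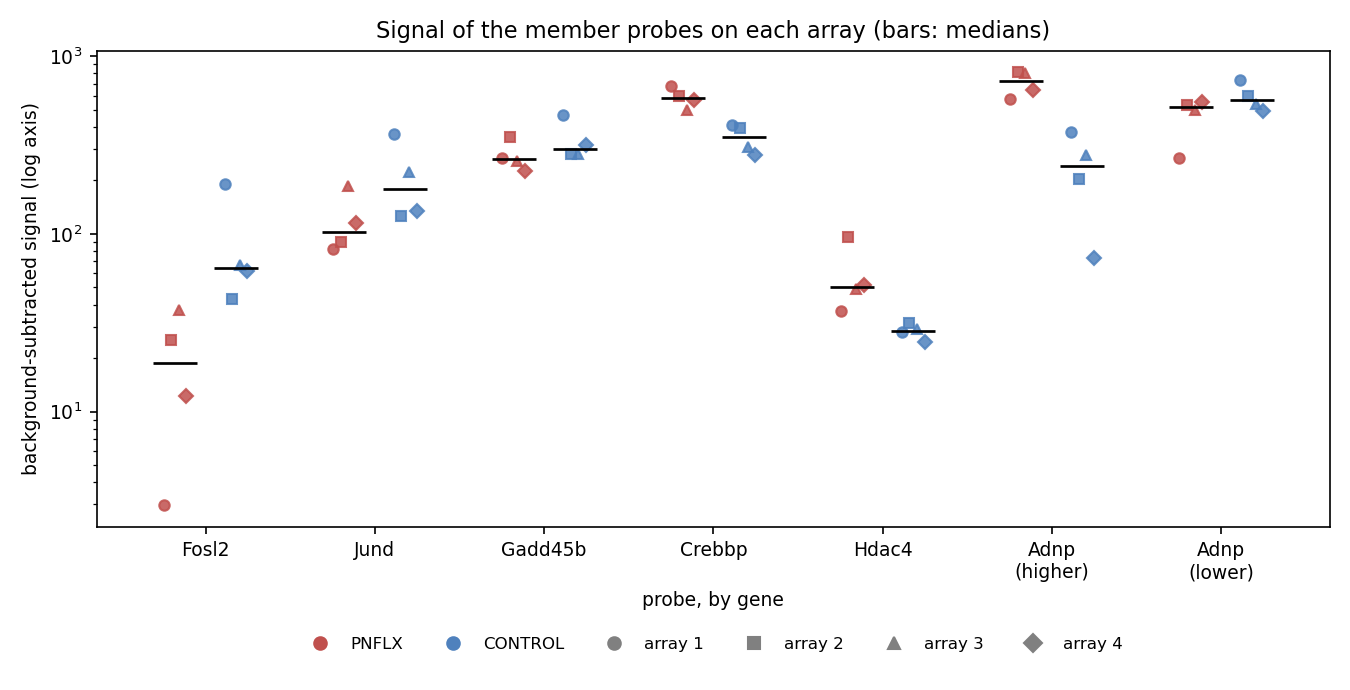
Background-subtracted signal before scaling between arrays (log axis) for the 7 member probes, with PNFLX arrays in red left of CONTROL arrays in blue and bars for the group medians. Fosl2 (2.97 to 37.2 in PNFLX) and Hdac4 (24.6 to 31.5 in CONTROL) are dim, and Jund, Gadd45b and the lower-listed Adnp probe overlap between the groups; heights are not comparable between probes.

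AP-1 genes and histone acetylation regulators were set against each other within each array, as the mean log2 value of Fosl2 and Jund minus that of Crebbp and Hdac4. This difference was -3.59, -2.57, -1.16 and -2.44 on PNFLX 1 to 4, against 1.04, -0.85, 0.11 and -0.11 on CONTROL 1 to 4. It averaged -2.44 ± 1.00 in PNFLX and 0.05 ± 0.78 in CONTROL (SD, n = 4 each), a PNFLX minus CONTROL difference of -2.49. The order of the groups was fixed by the choice of members, from the tables of lower and of higher probes, and says nothing further. In PNFLX 1 the gap was widest on both sides, with an AP-1 mean of -2.82 and an acetylation mean of 0.78, and in PNFLX 3 it was narrowest, with -0.73 and 0.43. The AP-1 mean of PNFLX 1 includes the Fosl2 value at the lowest listed signal, which is a bound. Among PNFLX arrays, Jund was lowest on PNFLX 2 (-1.74) and not on PNFLX 1, where Hdac4 had its lowest value (0.44). Since the array scaling cancels in the difference, it is the same without scaling. With Gadd45b and the mean of both Adnp probes added to the chromatin side, PNFLX minus CONTROL was -2.17. With only Crebbp and Hdac4 on the chromatin side, the AP-1 minus acetylation difference between the groups was -2.11 without PNFLX 2 and CONTROL 1. Without PNFLX 1 it was -2.10.

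**Figure D4:**
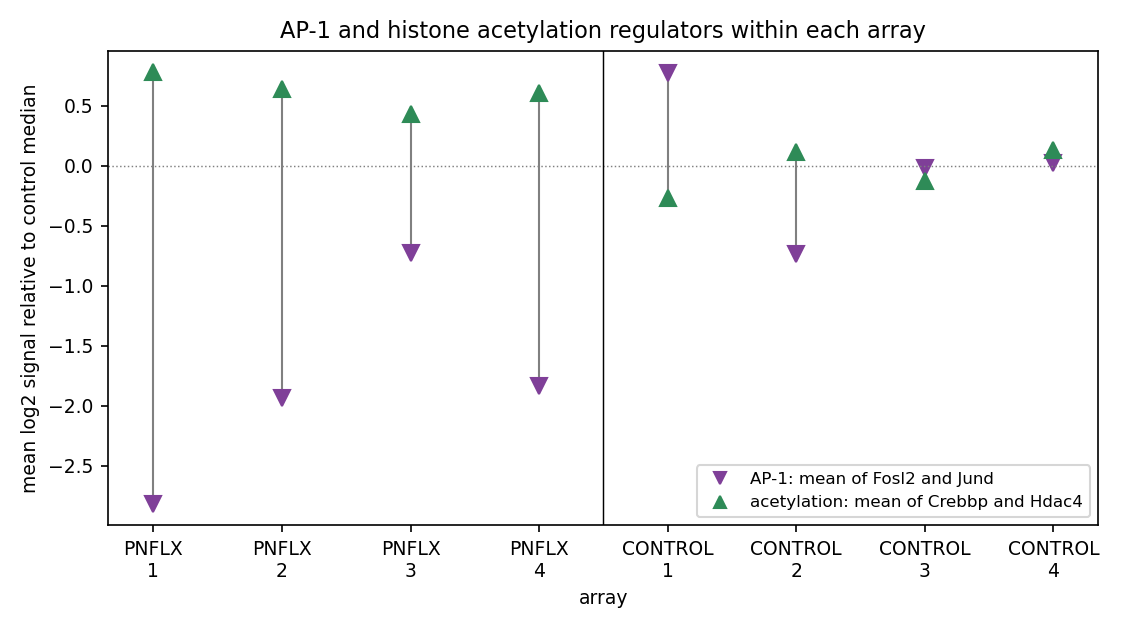
Mean log2 value of Fosl2 and Jund (AP-1, downward triangles) and of Crebbp and Hdac4 (acetylation, upward triangles) on each array, PNFLX arrays left of CONTROL arrays, with a grey line joining the means of an array. The AP-1 mean lies below the acetylation mean on all 4 PNFLX arrays and on CONTROL 2 and CONTROL 4, and above it on CONTROL 1 and CONTROL 3.

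Other genes of these pathways were looked for among the named ones. Of a list of 87 genes of activity-dependent transcription, 5 were in the authors' tables, Camk4 as higher and Fosl2, Jund, Gadd45b and Dusp5 as lower. Of a list of 128 chromatin regulators, 4 were named, with Adnp, Crebbp, Hdac4 and Daxx as higher and the other Adnp probe as lower. These are 5.75% and 3.12% of the genes of each list, where the tables hold 2.96% of all probes, 1.48% as higher and 1.48% as lower. Shares of genes and of probes are unlike measures. Both lists were written with earlier results of these data known, and between them they hold all the members. The members' part of these shares was therefore fixed in advance. Beyond the members, the first list gave Camk4 and Dusp5, and the second gave Daxx. How many of the remaining genes have a probe among the unnamed ones is not known here, and 0 of these 10 probes passed limma's adjusted threshold of 0.05, where 0.118% of all probes did. Under an unadjusted 0.05 were 4 of the 7 member probes and Dusp5, where 2.58% of all probes were.

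Dusp5, a nuclear phosphatase of ERK that is induced by ERK signalling, differed by more than any member. Its log2 values were -3.85, -5.03, -2.53 and -3.84 on PNFLX 1 to 4, against -0.04, 0.11, -1.19 and 0.04 on CONTROL 1 to 4. The groups lay apart by 1.35, and the difference was -3.54 ± 0.57 (log2, SE), or -3.06 without PNFLX 2 and CONTROL 1. The signal was 21.3, 15.5, 65.8 and 25.9 on PNFLX 1 to 4, against 418, 367, 150 and 256 on CONTROL 1 to 4. None was at the lowest listed signal of its array, but on PNFLX 2 it was near, at 15.5 against 9.09. Camk4, a calcium-dependent kinase that phosphorylates CREB, was at 0.66 ± 0.28, with PNFLX 4 (0.53) below CONTROL 2 (0.60). Daxx, a chaperone of histone variants, was at 0.63 ± 0.31, with PNFLX 1 (0.26) below CONTROL 3 (0.35).

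The listed probes whose 8 log2 values were most like each member's, by Pearson r over the 8 arrays, were named 2 per member probe. All these probes were listed for the same group difference and share the same arrays, so the r values are high by selection and are a description. Fosl2 was most like Pla1a, a phospholipase of phosphatidylserine (r = 0.975), and Nfya, the subunit of NF-Y that contacts the CCAAT box (r = 0.962). Jund was most like Pmel, a melanosome matrix protein (r = 0.915), and Clec4f, a C-type lectin (r = 0.906). Gadd45b was most like Tnfaip8l2, a regulator of immune cells (r = 0.947), and the kinase Csnk1a1 (r = 0.919). Crebbp was most like Slc25a3, the mitochondrial phosphate carrier (r = 0.966), and Kpna1, an importin (r = 0.962). Hdac4 was most like Or2ak6, an olfactory receptor (r = 0.924), and Gins4 of the DNA replication machinery (r = 0.908). The higher-listed Adnp probe was most like B3galnt1, a glycosyltransferase (r = 0.985), and the protease Lgmn (r = 0.962), and the lower-listed one like the olfactory receptor Or4f7c (r = 0.980) and Plbd2 (r = 0.950). No gene was named for more than 1 member probe.

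The members were set beside all probes by size. Their median absolute difference was 0.75 (log2, 7 probes), against 1.26 for the 450 listed probes and 0.31 for all 15207 probes. Jund had 272 listed probes with a larger absolute difference and Gadd45b 420, and the other members but Fosl2 lay between 190 and 386. The size and p criteria that made the tables were met by 1.48% of all probes as higher and by 1.48% as lower, 225 probes each way. With equal 75th percentiles that split was 115 higher and 312 lower. The groups did not overlap for 5 of the 7 member probes, 3 higher and 2 lower, where 1.18% of all probes were apart with PNFLX higher and 1.14% with PNFLX lower, and 63.1% of the 450 listed probes were apart in either direction. In limma, with Benjamini-Hochberg adjustment over all probes, 0 of the 7 passed (0.118% of all probes did), and 4 of the 7 were under an unadjusted 0.05 (2.58% of all probes). These shares are printed as background only, since the same contrast chose the members.

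The direction of all 7 member probes was the same under each of 14 other settings. Where the groups did not overlap, leaving arrays out could not reverse it, and the replicate block could not change any difference. The authors' criteria were often missed. The higher-listed Adnp probe met them under 13 of the 14 settings, Fosl2 under 12, Hdac4 under 11 and the lower-listed Adnp probe under 9. Jund and Gadd45b met them under 3 each and Crebbp under 2. With array medians set equal, or with quantile normalization, Fosl2 and the higher-listed Adnp probe were the only members that met the criteria. Without PNFLX 2 and CONTROL 1 the members that met them were the higher-listed Adnp probe and Hdac4.

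**Figure D5:**
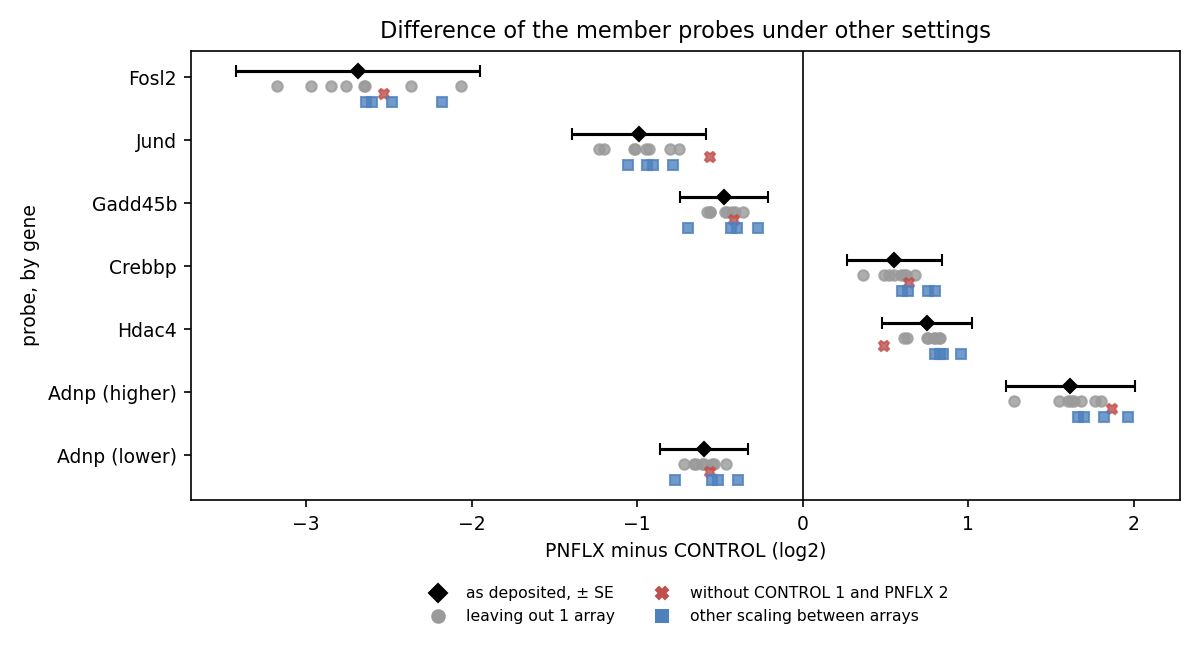
PNFLX minus CONTROL (log2, x axis) for each member probe as deposited (black, ± SE), with 1 array left out (grey), without PNFLX 2 and CONTROL 1 (red) and under other scaling between arrays (blue). No point crosses 0, and where the groups did not overlap, leaving arrays out could not make one cross. The Jund difference ranges from -1.23 to -0.56, that of Crebbp from 0.37 to 0.80.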

How the data were processed

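Total RNA of 8 mPFC samples was hybridised to Agilent custom rat 8x15k one-colour arrays, per the labels. The deposited values are log2 per the file headers, and in every row the CONTROL median is 0. Per the file headers, the deposited intensity is the gProcessed signal of Agilent. On the log2 scale, the deposited value and this signal differ by an array constant and a probe constant only (450 listed probes). How the authors set the array constants is not stated, and the tables hold no detection flags, so dim probes were kept. The authors' p-values are unadjusted.

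Groups follow the sample titles. Source names number the arrays CONTROL 1, 2, 4 and 5 and PNFLX 1, 2, 3 and 5, and title numbers are used. The number of arrays limits the precision. Current symbols came from RefSeq, by gene ID (423 listed probes) or symbol (10), and 17 kept the authors' name.

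All 15207 probes were fitted with limma 3.58.1 (R 4.3.3), PNFLX minus CONTROL, with no covariates, after a check on simulated data, and SE is its moderated standard error. Alternatives were quantile normalization, equal medians or 75th percentiles, other variance models, array weights, leaving out the 25% of probes with the lowest variance, other size thresholds, arrays left out, array numbers as a block and, chosen after seeing the data, unscaled signals. Named genes were the members, list members and the 2 most correlated listed genes per probe. Members and lists were chosen with earlier results of these data known.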

Additional observations from a re-analysis of the deposited data

How the results depend on the processing

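limma called 18 probes, 9 higher and 9 lower, none a member. This count was 10 with quantile normalization (2 higher, 8 lower), 4 with equal 75th percentiles (3 higher, 1 lower), 0 with a variance trend (323 at an unadjusted p under 0.05), 150 with array weights, 40 without PNFLX 2 and CONTROL 1, and 2 to 26 with 1 array left out, with 4 or fewer without PNFLX 4, CONTROL 2, CONTROL 3 or CONTROL 4. All 7 member probes met the authors' criteria as deposited. That number was 2 with quantile normalization, 2 with equal medians, 1 with equal 75th percentiles, 4 on unscaled signals (chosen after seeing the data), 2 without PNFLX 2 and CONTROL 1, and 4 to 6 with 1 array left out, the 4 being without PNFLX 4, CONTROL 1 or CONTROL 4. Over all probes the criteria were met by 450 as deposited, 298 with quantile normalization, 357 with equal medians, 427 with equal 75th percentiles, 366 with the replicate block and 783 without PNFLX 2 and CONTROL 1 (unscaled signals cover listed probes only). The array number as a replicate block gave 0 calls over all probes (346 at an unadjusted p under 0.05) and 4 members within the criteria. Same-numbered arrays did not deviate together (r from -0.67 to 0.44 over probes). The highest r, 0.85, was between PNFLX 2 and CONTROL 1, the arrays of widest spread. The block used title numbers, which differ from those of the source names, so whether the samples are paired is not known. The cause of these losses of calls and of members was not tested. All 98 member differences under other settings kept the sign by which the members were listed. Those with the replicate block could not move, and leaving arrays out could not reverse the sign where the groups did not overlap. The differences moved by less than 1 SD between arrays. AP-1 minus acetylation ranged from -2.92 to -2.10. Without detection flags, the size of the differences is uncertain for the probes of low signal (Fosl2, Hdac4).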
